A study of Rattus norvegicus with 6 samples.

Results

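The accessible regions described here were on the peak lists of all 3 Med14 S983A libraries and of WT cells treated with FSK, and were missing from the peak list of untreated WT cells. They are called shared FSK-gained peaks below. There were 4856 of them among the 220487 merged peaks outside the mitochondrial chromosome (2.20%), and the list of WT cells treated with Ex-4 was free to hold them or not. They were chosen by the peak calls of the libraries themselves, so their absence from untreated WT cells, their gain with FSK in WT cells and their presence in every mutant library are how the set was made and carry no test.

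The assay was ATAC-seq, in which the Tn5 transposase cuts and tags DNA that is open in the nucleus. The cells were INS-1, a rat insulinoma line used as a model of the pancreatic beta cell, either WT or carrying the Med14 S983A mutation. Cells of each genotype were put in serum-free medium and then left untreated (CON), exposed for 1 h to 10 nM Exendin-4 (Ex-4), or exposed for 1 h to 10 µM forskolin (FSK). Each of these 6 conditions had 1 library, so there is no replicate error and no test, and every difference below is a difference between libraries. The mutation was put into the endogenous gene by CRISPR and lines were grown from sorted cells. The sources used here do not say which mutant line gave the libraries, so an effect of the mutation and a feature of that line cannot be told apart.

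Med14 is a scaffold subunit of Mediator, the complex that joins transcription factors at enhancers to RNA polymerase II. The mutated serine lies in a recognition site of protein kinase A (PKA), the kinase that cAMP activates, and the alanine that replaces it cannot be phosphorylated. FSK activates adenylate cyclase directly, while Ex-4 raises cAMP through the GLP-1 receptor, the receptor of an incretin hormone that enhances insulin secretion.

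A value in FPKM is a read count scaled to peak length and library depth, and depth here is the number of reads inside the peaks of the same library. A region that was not called in a library is nearly always listed at 0 there (in all but 0.116% to 0.276% of such regions, by library), which does not mean that no read fell in it. The values thus seem to count only reads inside the library's own peaks. A library that called only a narrow part of a merged region would then have a lower level there. The part of call width in the differences below was not tested. Reads inside peaks were recovered from the steps between low values and came to 151500000 for WT CON, 158800000 for WT Ex-4 and 251200000 for WT FSK. For Med14 S983A they came to 134300000 untreated, 147100000 after Ex-4 and 163000000 after FSK. WT FSK was thus the deepest library and had the longest peak list, with 169451 peaks against 119024 to 144169 in the others, and the part of its depth in the gain was not tested. At the depth of WT CON, the WT FSK level would have given more than 63 reads, the limit below which the weakest 10% of WT CON peaks lie, in 3536 of the 4856 peaks (72.8%). Intervals given below are 95% intervals. Those on a level are exact Poisson intervals and cover counting error only. Those on a share of peaks are exact binomial intervals that treat peaks as independent. Neither kind covers differences between libraries.

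The shared FSK-gained peaks can be placed among the peaks of the mutant that untreated WT cells lacked. Of the 99613 peaks on all 3 mutant lists, 10290 (10.3%) were missing from WT CON. WT cells gained 4856 of those 10290 with FSK (47.2%, interval 46.2% to 48.2%), where 59.2% of all 89234 peaks missing from WT CON were on the WT FSK list. These shares are not made alike, so they do not show a rarer gain in the mutant peaks. The 89234 include peaks that entered the merged set only through the WT FSK call, while the 10290 entered through mutant calls. Of the 10290, WT cells gained 436 with Ex-4 but not with FSK (4.24%) and lacked 4998 in all 3 libraries (48.6%). The last group is called mutant only below and serves for comparison, since it differs from the shared FSK-gained peaks in the WT calls alone. Seen from the other side, the shared FSK-gained peaks were 9.20% of the 52785 peaks that WT FSK had and WT CON lacked. With the genotypes exchanged, 19225 peaks were on all 3 WT lists and missing from Med14 S983A CON, and the mutant gained 5116 of these with FSK (26.6%).

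These were weak to middling peaks. Their median level was 2.67 FPKM in WT cells given FSK. In the mutant it was 2.88 FPKM untreated, 3.32 after Ex-4 and 4.22 after FSK. All peaks called in a library had medians of 4.41 FPKM in WT FSK and 5.38, 4.80 and 4.39 FPKM in Med14 S983A CON, Ex-4 and FSK. In Med14 S983A FSK the members were thus near the median peak. Peaks called in all 6 libraries had medians between 7.42 and 8.77 FPKM. The median member held 167 reads in WT FSK and, in the mutant, 97 reads untreated, 129 after Ex-4 and 183 after FSK, which puts counting error for such a peak at 7.4% to 10.2%. The levels ran from 0.149 to 57.0 FPKM in WT FSK and from 0.145 to 71.1 FPKM in Med14 S983A CON. In each of the 4 libraries that define the set, 1271 peaks (26.2%) had at least 3 FPKM and 195 (4.02%) had at least 10. WT CON was listed at 0 in all but 4 of them, where it reached at most 0.063 FPKM.

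**Figure D1:**
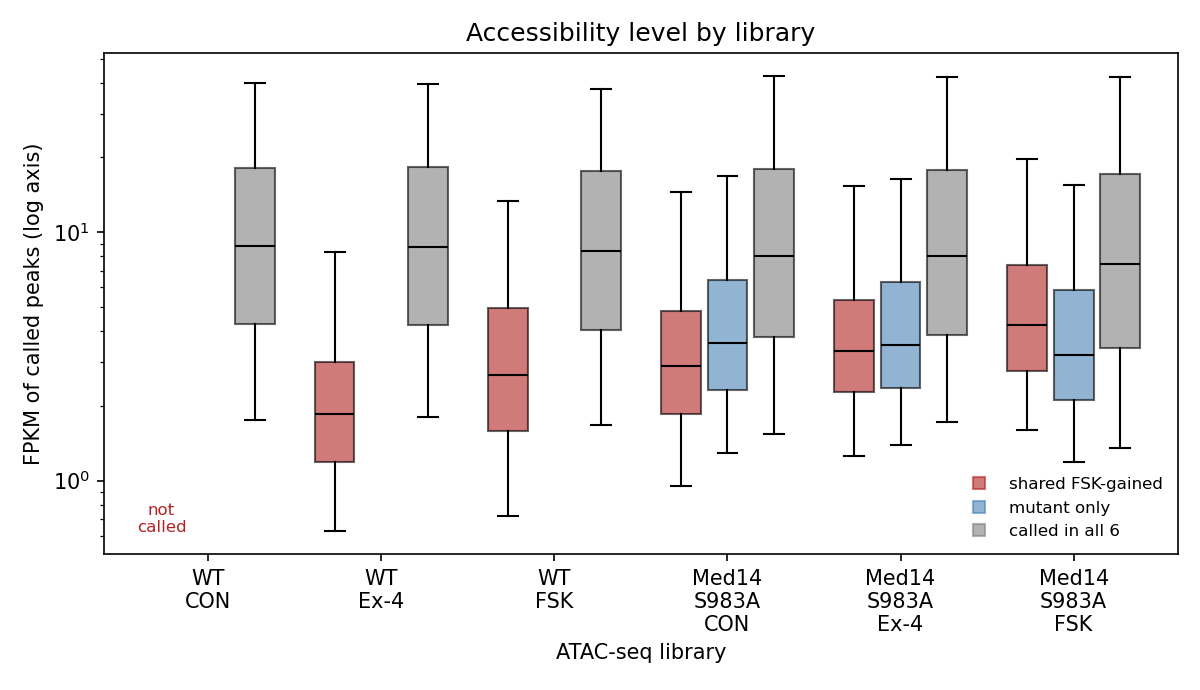
FPKM of called peaks in each library on a log axis, for shared FSK-gained peaks, mutant-only peaks and peaks called in all 6 libraries. Boxes span the lower to the upper quartile with the median as a line, and whiskers reach from the 5th to the 95th percentile. The median of the shared FSK-gained peaks goes from 2.88 in Med14 S983A CON to 4.22 in Med14 S983A FSK, while that of mutant-only peaks goes from 3.59 to 3.21.

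The edge of the rule lay at very low levels on both sides. The weakest member, chr7:2391856-2392112, had 0.145 FPKM in Med14 S983A CON, which is 5 reads. It had 0.778 FPKM in WT FSK, and in the mutant 0.478 after Ex-4 and 0.767 after FSK. Just outside the rule, chr14:86375014-86375917 was called in all 6 libraries with 0.154 FPKM (21 reads) in WT CON, and it had 1.36 in WT FSK and 0.824, 0.881 and 2.18 in Med14 S983A CON, Ex-4 and FSK. A second peak just outside, chr4:177447330-177449534, had 0.171 FPKM in WT CON and 5.27 in WT FSK, and its levels in Med14 S983A went from 0.138 in CON through 1.15 with Ex-4 to 5.67 with FSK. Membership therefore marks where the peak caller drew its line, and peaks with a like pattern stood outside it.

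Many of these peaks were more open in Med14 S983A cells treated with FSK than in untreated mutant cells, although all of them were on the list of the untreated mutant. Of the 4856, 1116 (23.0%) stood 2-fold or more higher with FSK than with CON in the mutant, where 5.33% of all 102707 peaks called in both libraries were. Only 22 (0.453%) were at least 2-fold lower, against 4.1% of all peaks called in both. The median difference in log2(FPKM + 0.5) was 0.32, against −0.11 over all peaks called in both and −0.13 over the 4998 mutant-only peaks. Of the mutant-only peaks 141 (2.82%) were at least 2-fold higher and 159 (3.18%) at least 2-fold lower. Only mutant libraries enter this comparison, and both sets were called in all of them, while the WT calls alone divide one set from the other. Those WT calls are themselves a gain with FSK in one set and the lack of it in the other. The contrast is thus between peaks chosen for an FSK gain in WT and peaks chosen for none. Other peaks that WT gained with FSK were not set beside them here.

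Ex-4 gave smaller differences in the same direction. The median difference between Med14 S983A Ex-4 and Med14 S983A CON was 0.13 on the log2(FPKM + 0.5) scale, against −0.02 over the 108510 peaks called in both. At least 2-fold higher were 183 peaks (3.77%), where 0.747% of all peaks called in both were, and at least 2-fold lower were 8 (0.165%), where 0.125% were. The Ex-4 and FSK comparisons share the untreated mutant library, so a low value there lifts both. Compared with each other without it, 620 peaks (12.8%) stood 2-fold or more higher in FSK-treated than in Ex-4-treated mutant cells (4.16% of all 110424 peaks called in both), and 20 (0.412%) were at least 2-fold lower (2.22% of all).

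**Figure D2:**
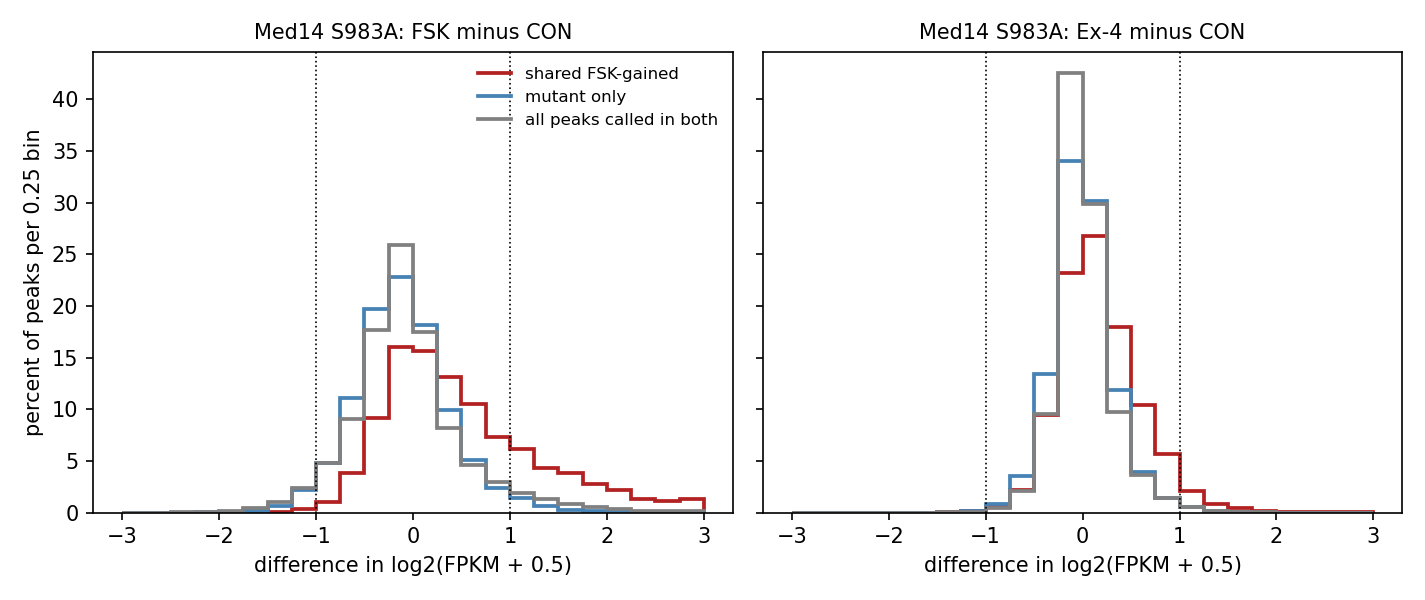
Difference in log2(FPKM + 0.5) between FSK and CON (left) and between Ex-4 and CON (right) in Med14 S983A cells, as the percent of peaks in bins of 0.25, for shared FSK-gained peaks, mutant-only peaks and all peaks called in both libraries. Dotted lines mark 2-fold, and values beyond 3 are drawn in the outer bins. With FSK 23.0% of the shared FSK-gained peaks lie above the upper line against 2.82% of the mutant-only peaks.

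Within the mutant, the order CON, Ex-4, FSK from low to high was the commonest. It held in 2173 of the shared FSK-gained peaks (44.7%), in 17.6% of mutant-only peaks and in 21.4% of peaks called in all 6 libraries. The opposite order held in 608 (12.5%), against 30.6% and 39.8%. Among the 4 libraries that define the set, Med14 S983A FSK was highest in 2401 peaks (49.4%), and WT FSK was lowest in 2528 (52.1%). These ranks were not counted over a comparison set. The rule asked for a call in every mutant library and for no call in untreated WT cells. A low rank of WT FSK was therefore partly built into the choice, and the ranks are given as a description.

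The excess over the comparison sets was seen at every level. Among peaks with a mean below 2 FPKM over Med14 S983A CON and FSK, 10.2% of shared FSK-gained peaks were at least 2-fold higher with FSK, against 3.38% of mutant-only peaks and 3.93% of peaks called in all 6 libraries. Between 4 and 8 FPKM the shares were 30.7%, 2.86% and 6.07%, and from 16 FPKM they were 22.3%, 4.84% and 2.46%. It was larger in longer peaks. Of the 1527 shared FSK-gained peaks shorter than 200 bp only 62 (4.06%) were at least 2-fold higher with FSK, with a median difference of 0.04. Of the 1177 peaks of 400 bp or more it was 507 (43.1%), with a median of 0.79. Mutant-only peaks of 400 bp or more stood at 5.33% and peaks of that length called in all 6 libraries at 4.81%. A longer merged region leaves more room for libraries to differ in the width they called. The part of this in the trend with length was not tested.

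**Figure D3:**
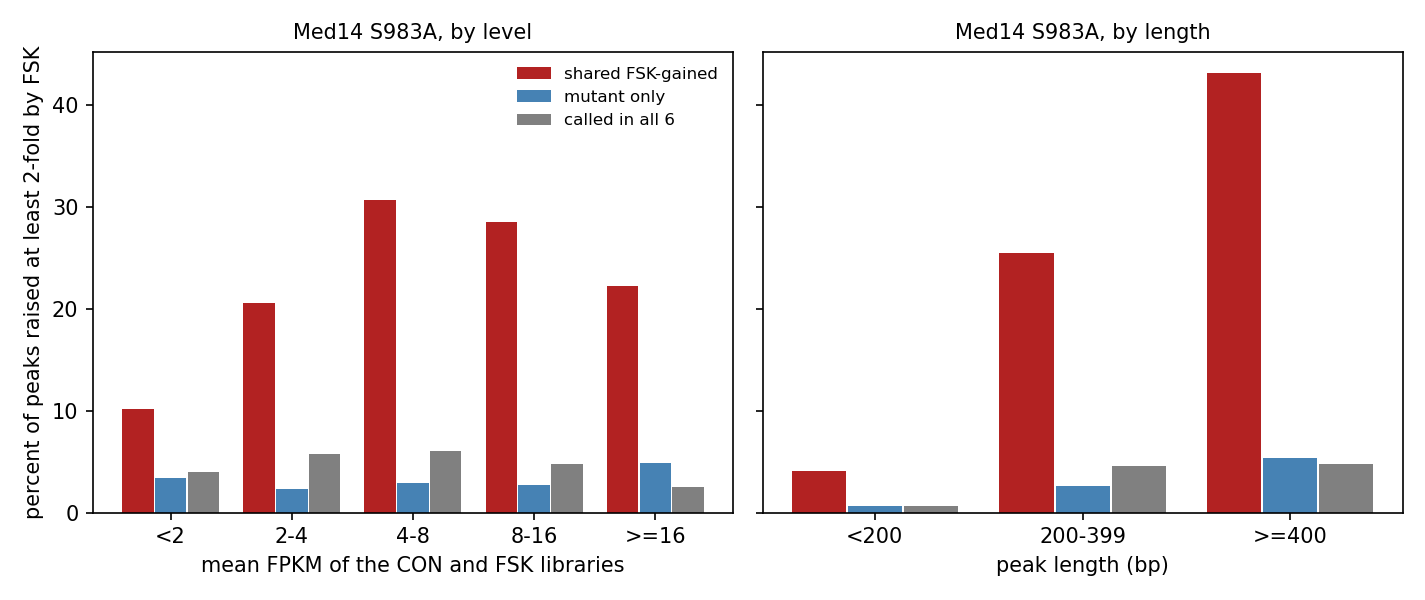
Percent of peaks at least 2-fold higher in Med14 S983A FSK than in Med14 S983A CON, by mean FPKM of the 2 libraries (left) and by peak length (right), for shared FSK-gained peaks, mutant-only peaks and peaks called in all 6 libraries. The bar for shared FSK-gained peaks is the tallest in every bin, and it reaches 43.1% in peaks of 400 bp or more. The part of call width in the trend with length was not tested.

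The 1116 peaks that were at least 2-fold higher with FSK in the mutant were chosen on its CON and FSK levels, so a low CON and a high FSK level there follow from the choice. Their median was 1.71 FPKM in Med14 S983A CON, 3.01 after Ex-4, 6.76 after FSK and 4.84 in WT FSK. The other 3740 had medians of 3.30, 3.42 and 3.67 in Med14 S983A CON, Ex-4 and FSK and 2.35 in WT FSK. The first group had a median length of 381 bp and the second of 234 bp. The mutant response went with the WT level: when the 4856 peaks were ranked by WT FSK and split into 4 groups of 1213 to 1215, the share at least 2-fold higher with FSK in the mutant was 9.81%, 11.9%, 25.1% and 45.1% from the lowest group to the highest. Across the peaks, log2 levels of WT FSK correlated with the untreated mutant at r = 0.38, with Ex-4-treated mutant cells at r = 0.52 and with FSK-treated mutant cells at r = 0.69, a description over 4856 peaks that share their libraries and lengths. The same order held over the 86576 peaks called in all 6 libraries, at r = 0.75, 0.80 and 0.84.

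The largest differences were very large. The peak chr17:57092970-57094371 was listed at 0 in WT CON and had 3.60 FPKM in WT Ex-4 and 20.7 in WT FSK. In Med14 S983A it had 0.186 FPKM in CON (interval 0.130 to 0.259, 35 reads), 6.75 with Ex-4 and 33.5 with FSK (interval 32.7 to 34.2), which is 49.5-fold from CON to FSK on the log2(FPKM + 0.5) scale. The call in the untreated mutant thus rested on few reads at this region. The width called in each library is not given, so the part of call width in the 49.5-fold difference was not tested. The peak chr4:58064560-58066209 went the same way, with 13.6 FPKM in WT FSK and 0.501, 6.04 and 18.8 FPKM in Med14 S983A CON, Ex-4 and FSK. So did chr9:97742515-97743244, with 16.6 FPKM in WT FSK and 0.756, 5.83 and 25.1 FPKM in the mutant, but it lies in a stretch of chromosome 9 that stood higher in the mutant throughout.

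Other strong members showed no such step. The peak chr2:110305626-110305727 had 31.0 FPKM in WT FSK and 71.1, 64.3 and 59.9 FPKM in Med14 S983A CON, Ex-4 and FSK. The peak chrX:124973356-124973460 had 36.0 FPKM in WT FSK and 48.0, 46.9 and 51.2 FPKM in the mutant, and was listed at 0 in WT Ex-4 as in WT CON. Both are barely over 100 bp long, as 5 of the 6 members with the highest lowest level were at most 165 bp long, and FPKM divides by length. Among the short ones chr6:1939035-1939200 did differ within the mutant, with 29.2, 33.5 and 45.1 FPKM in CON, Ex-4 and FSK, and so did chr14:3307512-3307645 with 37.4, 50.5 and 53.4 FPKM.

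A few members were lower with FSK in the mutant. The peak chr16:23054828-23055278 had 7.78 FPKM in Med14 S983A CON (interval 7.09 to 8.51), 6.46 with Ex-4 and 2.33 with FSK (interval 1.99 to 2.71), while WT had 2.94 with Ex-4 and 2.01 with FSK. The peak chr9:34274753-34275022 had 4.37, 2.91 and 1.07 FPKM in Med14 S983A CON, Ex-4 and FSK, and 3.21 and 1.27 in WT Ex-4 and FSK. At both, FSK left the mutant near the level of WT cells with FSK.

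Under FSK the set stood higher in the mutant than in WT. The median difference between Med14 S983A FSK and WT FSK was 0.49 on the log2(FPKM + 0.5) scale (1.40-fold), against 0.01 over the 121995 peaks called in both. At least 2-fold higher in the mutant were 1124 peaks (23.1%), where 4.56% of all peaks called in both were. At least 2-fold lower were 31 (0.638%), where 11.5% of all were. The rule asked for a call in 3 mutant libraries and 1 treated WT library, so this difference was partly built into the choice and is given as a description. The difference was larger in the 2795 peaks that WT Ex-4 lacked (median 0.60) than in the 2061 that it had (0.33).

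Against the untreated mutant the direction was mixed. The median difference between WT FSK and Med14 S983A CON was −0.21, close to the −0.15 over all 101318 peaks called in both. WT FSK was at least 2-fold higher in 737 peaks (15.2%, where 13.6% of all were) and at least 2-fold lower in 765 (15.8%, where 8.21% of all were). Which of these counts was larger turned with a pseudocount of 1 (636 higher and 606 lower), among other settings. The level that WT cells reached with FSK was thus, at the median, 0.864 of the level that mutant cells had with no stimulus, with a wide spread between peaks.

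**Figure D4:**
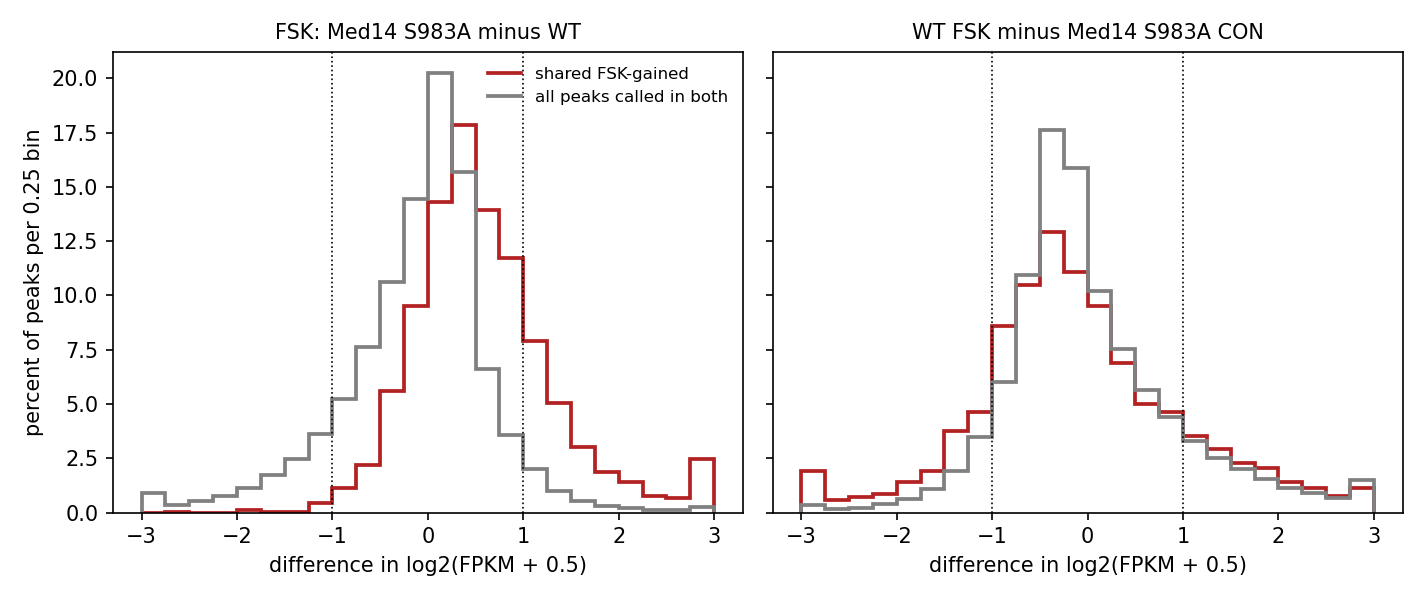
Difference in log2(FPKM + 0.5) between Med14 S983A FSK and WT FSK (left) and between WT FSK and Med14 S983A CON (right), as the percent of peaks in bins of 0.25, for shared FSK-gained peaks and all peaks called in both libraries. Dotted lines mark 2-fold, and values beyond 3 are drawn in the outer bins. On the left the shared FSK-gained peaks lie to the right of the others, with medians of 0.49 and 0.01, and on the right their median is −0.21 against −0.15.

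The ends of this range were wide apart. The peak chr10:94563124-94563935 had 0.528 FPKM in WT Ex-4 and 0.471 in WT FSK (interval 0.382 to 0.575), and 47.3, 46.0 and 46.8 FPKM in Med14 S983A CON, Ex-4 and FSK, so it was among the strong peaks of the mutant in every condition and rested on 96 reads in WT FSK. The peak chr16:9430081-9431317 was alike, with 0.358 FPKM in WT FSK and 35.5, 34.1 and 33.3 FPKM in the mutant. The peak chr7:63617201-63618158 had 0.649 FPKM in WT FSK, and in the mutant it went from 20.7 in CON through 31.1 with Ex-4 to 45.3 with FSK. At the other end chr13:110014711-110015557 had 3.05 and 14.8 FPKM in WT Ex-4 and FSK, and only 0.774, 0.619 and 2.12 in Med14 S983A CON, Ex-4 and FSK. The peak chr2:117589000-117589479 had 5.57 and 8.88 FPKM in WT Ex-4 and FSK and 1.69, 2.13 and 1.99 FPKM in the mutant.

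WT cells treated with Ex-4 had 2061 of the 4856 peaks on their list (42.4%, interval 41.0% to 43.8%). This call was not part of the rule. Of the other 47929 peaks that WT FSK had and WT CON lacked, WT Ex-4 had 12.1%, and of the 22267 such peaks that Med14 S983A FSK also had but that were not on all 3 mutant lists it had 12.4%. These comparison peaks were not matched to the members in length, level or number of calls required. All other peaks missing from WT CON had a median length of 158 bp, against 269 bp in the members. The part of these differences in the gap was not tested. With the genotypes exchanged, Med14 S983A Ex-4 had 3089 of the 5116 peaks that were on all 3 WT lists and that the mutant gained with FSK (60.4%). The share went up with the WT FSK level, from 35.9% in the lowest of the 4 groups to 49.3% in the highest, and was 45.5% among the 1116 peaks at least 2-fold higher with FSK in the mutant and 41.5% among the rest. Where WT Ex-4 had the peak its level was mostly below that of WT FSK. The medians were 1.86 and 2.997 FPKM, and the median difference was −0.33 on the log2(FPKM + 0.5) scale, against 0.10 over the 120024 peaks called in both. WT Ex-4 was at least 2-fold lower in 575 peaks (27.9%, where 6.03% of all were) and at least 2-fold higher in 6 (0.291%, where 2.67% were). The rule asked for a call in WT FSK and left the WT Ex-4 call free. This difference was therefore partly built into the choice and is given as a description.

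The members with the highest WT Ex-4 level were short. The peak chr5:143142140-143142249 had 29.2 FPKM in WT Ex-4 and 24.4 in WT FSK, and 23.4, 21.7 and 21.2 FPKM in Med14 S983A CON, Ex-4 and FSK. The peak chr13:25969281-25969433 had 24.6 and 29.4 FPKM in WT Ex-4 and FSK and 30.8, 25.2 and 29.0 FPKM in the mutant. At these the 5 libraries that called them were alike, while chr12:9502295-9502448 had 27.6 and 27.9 FPKM in WT Ex-4 and FSK and 46.5, 44.2 and 50.9 FPKM in the mutant. Each of the peaks named here was listed at 0 in WT CON alone. In the order given, they lie 338, 304 and 361 bp from a peak that WT CON did have.

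Several members stood together in the genome (coordinates are those of the rn6 table). Of the 4856, 527 (10.9%) lay within 10 kb of another member, against 9.30% of mutant-only peaks and 7.60% of peaks called in all 6 libraries that lay within 10 kb of a member. There were 27 chains of neighbours at most 10 kb apart that held 3 or more members. The genome was also cut into bins of 500 kb, after the values had been seen. Of 5531 bins with a peak, 2589 held a member and 122 held at least 5.

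The fullest bin, chr1:52500001-53000000, held 26 members among 267 peaks, of which 54 were on the WT CON list. Its members had a median of 11.1 FPKM in WT FSK and 1.55, 5.15 and 12.2 FPKM in Med14 S983A CON, Ex-4 and FSK. WT Ex-4 listed 19 of them, with a median of 2.97 FPKM over all 26 when the unlisted ones count as 0. In the mutant 22 of the 26 were at least 2-fold higher with FSK and 17 with Ex-4, and the median differences were 2.89 and 1.48 on the log2(FPKM + 0.5) scale. Under FSK the genotypes were close here, with a median difference of 0.22 and 4 of 26 at least 2-fold higher in the mutant. The peak chr1:52643046-52643723, for instance, had 3.27 and 24.4 FPKM in WT Ex-4 and FSK and 0.935, 7.39 and 25.3 FPKM in Med14 S983A CON, Ex-4 and FSK. Peaks of this bin that were no members behaved alike in part: 18 of the 44 that Med14 S983A CON and FSK both called were at least 2-fold higher with FSK.

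The longest chain held 7 members over 28.1 kb at chr1:221179740-221207876, among 25 peaks of which WT CON had 9. Its last peak, chr1:221207243-221207876, was the strongest of the whole set by its lowest level: it had 13.6 FPKM in WT Ex-4 and 57.0 in WT FSK, and 44.1, 66.0 and 107 FPKM in Med14 S983A CON, Ex-4 and FSK. Over the 7 peaks the levels ran from 6.02 to 57.0 FPKM in WT FSK, from 6.96 to 44.1 in Med14 S983A CON and from 30.3 to 107 in Med14 S983A FSK. Here, unlike in the fullest bin, the untreated mutant was already at the WT FSK level or above it in 6 of the 7 peaks.

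**Figure D5:**
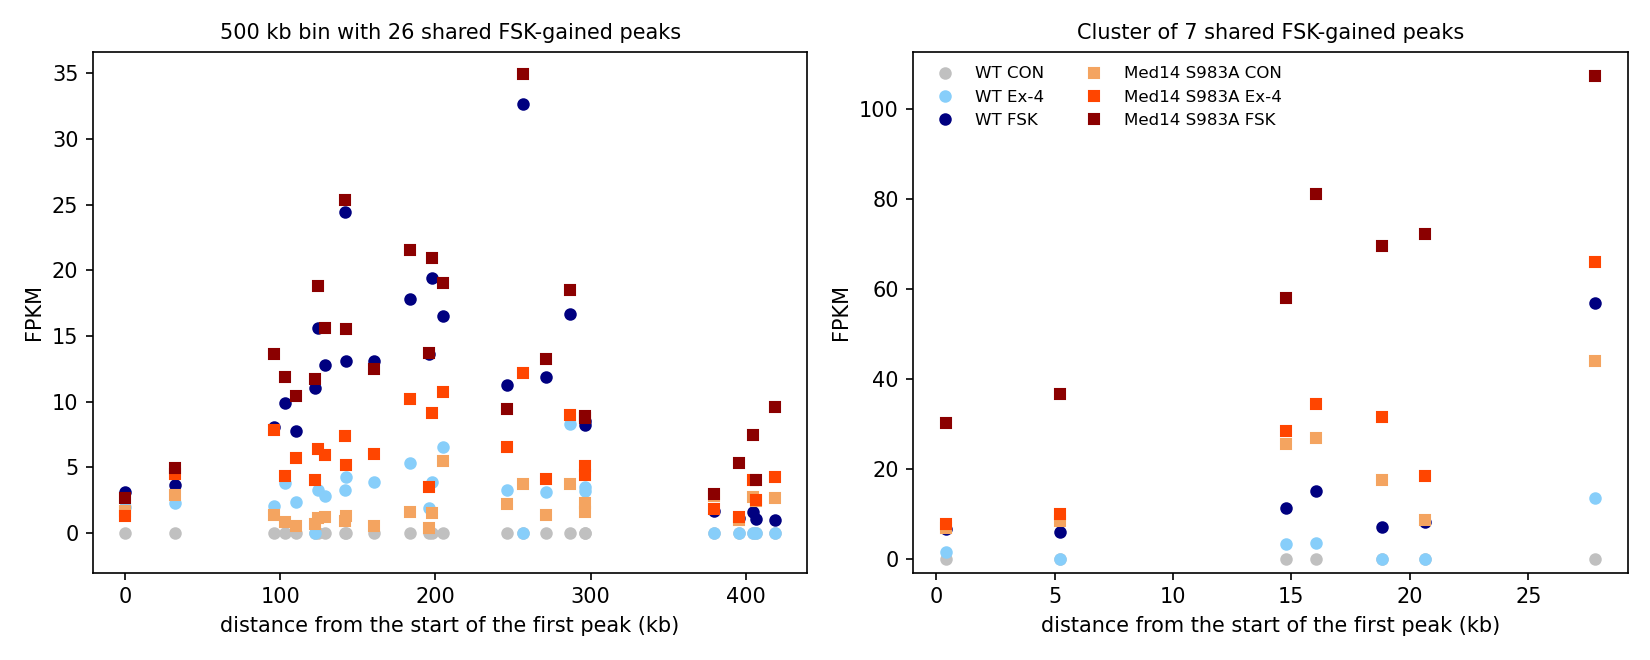
FPKM in the 6 libraries at the 26 members of the fullest 500 kb bin (left) and at the 7 members of the longest chain (right), by distance from the start of the first peak in kb. Circles are WT and squares are Med14 S983A. On the left the medians are 11.1 in WT FSK and 12.2 in Med14 S983A FSK with 1.55 in Med14 S983A CON, and on the right Med14 S983A FSK reaches 107 FPKM against 57.0 in WT FSK.

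Other full bins were chr9:111000001-111500000, with 15 members of which 14 were at least 2-fold higher with FSK in the mutant, and chr4:58000001-58500000, with 13 of which 11 were. Of the other peaks called in both libraries there, 9 of 21 and 14 of 43 were. In contrast, the bin chr9:79500001-80000000 held 11 members of which 2 were, and chr11:87500001-88000000 held 9 of which 1 was, and of the other peaks there 1 of 41 and 3 of 45 were. Closeness to other members and a response to FSK in the mutant thus did not always go together. The bin chr9:79500001-80000000 lies wholly inside the stretch of chromosome 9 that stood higher in the mutant, and chr9:111000001-111500000 overlaps its end. The part of that shift in their member counts was not tested.

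The 4856 peaks lay on every chromosome but were uneven. They made up 3.17% of the peaks on chromosome 9 and 2.74% on chromosome 5, and between 1.81% on chromosome 15 and 2.47% on chromosome 14 elsewhere. Parts of chromosomes 5 and 9 stood at least 1.5-fold higher in the mutant over whole runs of 200 neighbouring peaks in CON, Ex-4 and FSK alike, at chr5:154306858-173533976 and chr9:79332023-111114791. These runs were found from peaks called in all 6 libraries, which cannot be members. They held 220 members (4.53%, against 2.41% of all peaks and 6.48% of mutant-only peaks), and the median difference between Med14 S983A FSK and WT FSK was 0.99 inside them. Without the stretches shifted either way the shares were 2.64% on chromosome 9 and 2.52% on chromosome 5. Parts of chromosomes 4 and 15 stood lower in the mutant by the same measure, at chr4:159247647-180266951 and chr15:56885-5565084, and held 8 members each. The DNA copy number of these stretches in the mutant line was not measured here. Of the 4620 members outside all 4 stretches 1044 (22.6%) were at least 2-fold higher with FSK in the mutant.

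The members had a median length of 269 bp (quartiles 180 and 393 bp), near the 277 bp of mutant-only peaks and the 284 bp of all other peaks. Peaks called in all 6 libraries were longer, with a median of 584 bp, and other peaks missing from WT CON were shorter, at 158 bp. The median distance from a member to the nearest peak was 1245 bp, against 1316 bp for mutant-only peaks and 1822 bp for peaks called in all 6 libraries. A median of 15 other peaks lay within 50 kb of a member, against 13 and 13. A WT CON peak lay within 1 kb of 1439 members (29.6%), against 24.8% of mutant-only peaks and 24.98% of peaks called in all 6 libraries. Of those 1439, 308 (21.4%) were at least 2-fold higher with FSK in the mutant, close to the 23.0% of the whole set.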

How the data were processed

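Reads were trimmed, aligned to rn6 with BWA, filtered with SAMtools and used to call peaks with MACS2, per the labels and the study's methods, and peaks of the 6 libraries were merged. The authors deposited FPKM per merged peak, computed with HOMER relative to reads inside each library's own peaks, and the lists holding each peak. Library depth is as given in the report; all low values checked, 1320 to 4321 per library, were within 0.15 of whole reads. No count test was run, since each group has 1 library.

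Differences were taken on log2(FPKM + 0.5) with a 2-fold rule and set beside all peaks called in both libraries. The 3 mitochondrial peaks were left out. The members, comparison sets and lists were chosen with earlier results of these data known; the 500 kb bins were added last. Named regions are the 6 highest by lowest level over the 4 defining libraries, the 4 largest differences each way with FSK in the mutant, the 4 highest in WT Ex-4, the 3 most extreme each way between genotypes under FSK, and those at the rule's edge, of which the text gives a part. An rn6 sequence and annotation were not used here, so motifs, nearby genes and cell markers were not analysed here. Steps were tested on simulated reads. The tools were scipy 1.17.1, pandas 2.3.3 and numpy 2.4.6, run under Python 3.11.15, with matplotlib 3.10.9 for the figures.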

Additional observations from a re-analysis of the deposited data

Results flagged for a closer look

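In WT cells all members were gained with FSK, by the rule, but 22 of the 4856 were at least 2-fold lower with FSK than with CON in Med14 S983A (0.453%, fewer than the 4.1% of all peaks called in both). Their medians were 4.41 FPKM in Med14 S983A CON, 3.34 after Ex-4, 1.64 after FSK and 1.38 in WT FSK. WT Ex-4 had 10 of them. The WT direction is fixed by the rule, and a difference between genotypes was not tested.

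Of the 2061 members on the WT Ex-4 list, 5 were at least 2-fold lower with Ex-4 than with CON in Med14 S983A (0.243%, where 0.125% of all peaks called in both mutant libraries were). The peak chr7:76765960-76766354 had 1.42 FPKM in WT Ex-4, and 2.95, 0.776 and 1.39 FPKM in Med14 S983A CON, Ex-4 and FSK. The peak chr1:52353066-52353390 had 1.30 FPKM in WT Ex-4, and 3.22, 1.24 and 3.37 FPKM in the mutant. The WT direction here is only that of the peak lists, and a difference between genotypes was not tested.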

How the results depend on the processing

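No paired analysis was possible because a condition is 1 library here, and leaving out a library was not possible either. Of 96 alternative counts, shares and medians that answer a comparison, 57 stayed within 1.5 times or 0.1 log2 of the reported value, and no median difference changed sign. The 3 counts of higher peaks in the mutant stayed above the share over all peaks in every alternative run.

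The other 39 values follow. With a pseudocount of 0.1, FSK in the mutant gave 47 lower members, Ex-4 gave 323 higher and 20 lower, and 53 were lower in the mutant than in WT under FSK. With a pseudocount of 1 these were 8, 105, 1 and 14. With a minimum mean of 3 FPKM, FSK in the mutant gave 527 higher and 4 lower members, Ex-4 gave 118 and 1, the mutant against WT under FSK 500 and 11, and WT FSK against the untreated mutant 389 and 376. With centred libraries, 10 members were lower with FSK in the mutant and 13 were lower in the mutant than in WT. Quantile normalization gave 10 and 10, and 14 lower with Ex-4. A 1.5-fold rule gave 1790 higher and 176 lower for FSK, 755 and 83 for Ex-4, 2107 and 141 for the mutant against WT, and 1114 and 1499 for WT FSK against the untreated mutant. A 4-fold rule gave 291 and 0, 12 and 0, 256 and 1, and 214 and 197. Over peaks more than 1 kb from a WT CON peak, a choice added after seeing the data like that of peaks of at least 200 bp, 4 were lower with Ex-4 and 19 were lower in the mutant than in WT. The 1.5-fold and 4-fold counts moved by construction; the cause of the others was not tested.

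Centring moved the median log2 difference of the mutant against WT under FSK from 0.49 to 0.66, and that of all peaks called in both from 0.01 to 0.18. For FSK in the mutant it moved these from 0.32 to 0.43 and from −0.11 to 0.00, so the gap to all peaks changed little. Over peaks of at least 200 bp the median for FSK in the mutant was 0.55, and that of WT FSK against the untreated mutant was −0.06 in place of −0.21, above the −0.13 of all such peaks. The balance of higher and lower members for WT FSK against the untreated mutant, 737 and 765 as reported, turned with a pseudocount of 1 (636 and 606), in peaks of at least 200 bp (703 and 640), over 1 kb from a WT CON peak (536 and 530) and in the 3 FPKM and 4-fold counts above. Motif and gene alternatives were not run.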
